A study of Mus musculus with 10 samples.

Results

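The genes of cholesterol synthesis and of its control by the transcription factor SREBP2 were examined in tumour epithelium of KPFSR mice, which develop pancreatic ductal adenocarcinoma. The members were chosen by symbol from the deposited count table, and all 28 on the list were found among its 15624 genes, 27 under the listed symbol and Msmo1 under its older symbol Sc4mol. They comprise 20 enzymes of the pathway, 6 proteins of SREBP2 control, SREBP2 itself among them, and 2 proteins that move sterols within the cell. All 28 passed the filter on low counts, which left 13006 genes for testing. Epithelium was taken from frozen tumour sections by laser capture microdissection, in which cells are cut out under a microscope. The samples were 4 from mice given corn oil, the vehicle, and 6 from mice given tamoxifen.

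Both groups carry the same label, KPFSR, and the labels give no allele, strain, age, sex, dose or duration. From knowledge of the model rather than the labels, the tumours start from Flp-activated alleles in the pancreas in both groups, and tamoxifen activates a Cre expressed throughout the body that removes Slc7a11, which encodes a cystine importer. Corn oil mice were not given the drug, so an effect of tamoxifen itself cannot be told apart from one of the deletion. No label says which animal a sample came from, so the p-values reflect only how far these samples vary, and that variation may be technical.

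Cholesterol is built from acetyl-CoA through mevalonate, isoprenoids, squalene and lanosterol. When sterols in the endoplasmic reticulum are low, Scap carries SREBP2 to the Golgi, where the proteases encoded by Mbtps1 and Mbtps2 release its active part, which switches on most enzymes of the pathway. Insig proteins hold Scap back when sterols are plentiful. In cultured cells tamoxifen is known to bind sterol enzymes, among them those encoded by Ebp and Dhcr7.

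Libraries held 16473902 to 36132316 counts with corn oil and 6899347 to 19462115 with tamoxifen. Slc7a11 stood at 23.2 to 40.1 normalised CPM, that is CPM scaled with TMM factors, in corn oil libraries and at 5.90 to 19.3 in tamoxifen libraries (exact two-sided permutation p 0.00952, the smallest that 4 and 6 libraries can give). Its edgeR p adjusted over all genes was 0.311. Epithelial markers were abundant in every library, with a summed level of 14631 to 31165 normalised CPM over 9 genes. Tamoxifen replicates 1 to 3 resembled each other closely, with Pearson's r over the log2 CPM of all tested genes at 0.921 to 0.963, against at most 0.878 for any other pair; genes are not independent replicates. Without these 3 libraries, a test added after the data were seen, the exact two-sided permutation p for Slc7a11 was 0.0571, the lowest value possible with 4 against 3. For members whose log2 fold change moved by over 1.5 times without them, both values are given. In bulk samples fewer cells of a type and less RNA per cell cannot be told apart.

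The sterol enzymes were mostly lower with tamoxifen, but none of the 28 members passed an FDR of 0.05 in edgeR (0.0384% of all tested genes did). Of the 28, 21 had a lower fitted level with tamoxifen (50.7% of all tested genes did). The median log2 fold change was -0.58, beside -0.01 over all tested genes. This share and median of all tested genes also stand beside the direction counts and medians of the lists below. At an unadjusted p under 0.05, 6 members were lower (5.27% of all tested genes) and 0 were higher (4.43% of all tested genes). DESeq2 called Fdps and limma voom called Fdps and Tm7sf2, all lower. Of all tested genes DESeq2 called 0.93% as lower and 0.938% as higher, and voom called 6.94% and 2.68%. Both fits counted tamoxifen replicates 1 to 3, which resembled each other closely, as separate libraries. The voom log2 fold change of Tm7sf2 was -2.19, beside -1.20 in edgeR and -0.64 in edgeR without those replicates. The 18 of 20 enzymes that were lower had fold changes down to -1.46 on the log2 scale, and the 2 others were Ggps1 and Lbr. The control genes divided evenly, with 3 lower and 3 higher and a median of 0.03.

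**Figure D1:**
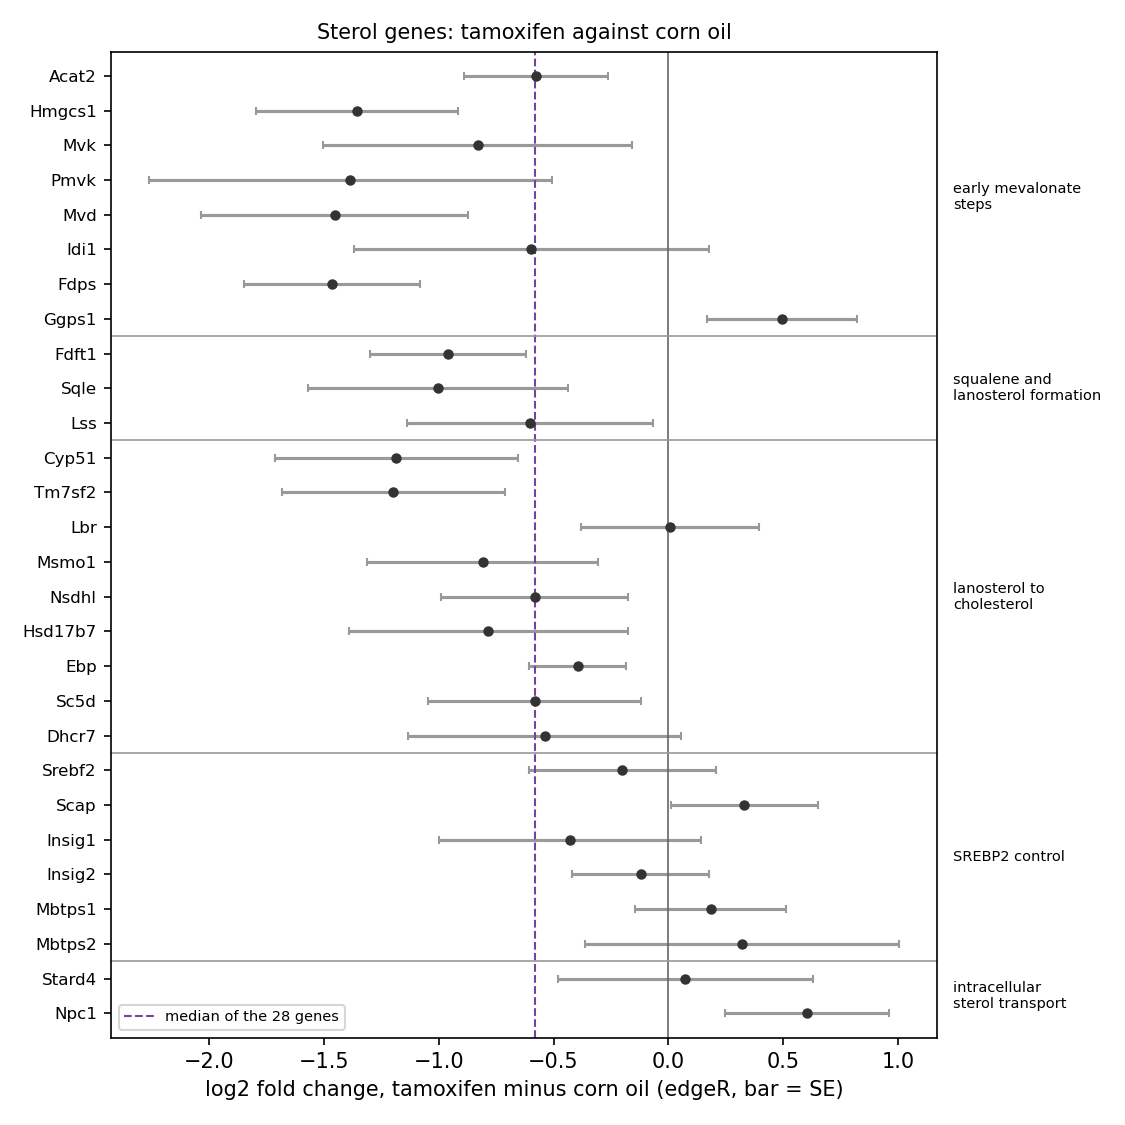
Log2 fold change of each of the 28 genes, tamoxifen minus corn oil, with the SE as bars and the genes ordered by their role. Enzymes lie mostly left of 0, with a median of -0.80, and the dashed line marks the median of all 28 genes, -0.58. The control genes lie on both sides of 0, and both transport genes lie right of it.

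The difference lay mostly in 2 of the 4 corn oil libraries. The 28 members summed to 1161, 2476, 1066 and 2958 normalised CPM in corn oil replicates 1 to 4, and to 1032 to 1460 (median 1296) in tamoxifen libraries. Corn oil replicates 1 and 3 thus lay at tamoxifen levels and only replicates 2 and 4 lay above them. The 20 enzymes alone summed to 863, 1941, 702 and 2474 with corn oil, against 662 to 1025 with tamoxifen. Corn oil replicates 2 and 4 were the highest pair of the 10 libraries for 13 of the 28 members, a pattern looked for after the values were seen and met by 3.63% of all tested genes. These were Acat2, Hmgcs1, Mvd, Idi1, Fdps, Fdft1, Sqle, Lss, Cyp51, Msmo1, Nsdhl, Ebp and Srebf2.

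Corn oil replicate 2 lay above every tamoxifen library for 18 members and replicate 4 for 16, while replicate 1 did so for 3 and replicate 3 for 4. For 14 members both replicates 1 and 3 fell within the tamoxifen range. These counts were not made over all tested genes, so they describe the members only. The spread between libraries was wider with corn oil, with a median SD of log2 CPM of 0.82 over the members against 0.58 with tamoxifen. Over all tested genes the order was the opposite, 0.65 with corn oil and 0.83 with tamoxifen. Tamoxifen replicates 1 to 3, which resembled each other closely, count as separate libraries in each tamoxifen SD, which may therefore be too small. Of the other pathway lists below, proliferation (1.09 against 0.88), sterol sensing (0.60 against 0.46) and cholesterol efflux (0.96 against 0.59) were also wider with corn oil. The lists of other sterol genes (0.54 against 0.68), the isoprenoid branch (0.35 against 0.48) and fatty acid genes (1.03 against 1.62) were wider with tamoxifen.

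**Figure D2:**
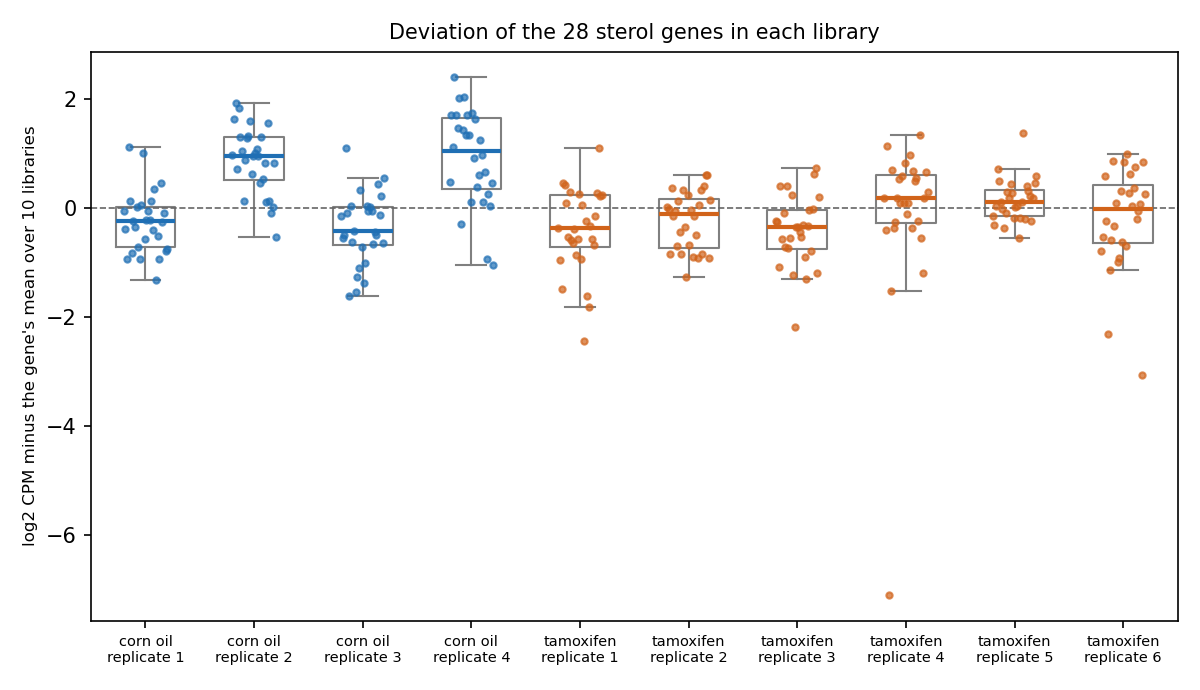
Each point is 1 of the 28 genes in 1 library, as its log2 CPM minus the gene's mean over all 10 libraries, and boxes give the quartiles with whiskers to the last point within 1.5 box lengths. Corn oil replicates 2 and 4 have medians of 0.96 and 1.05, and the other 8 libraries have medians between -0.42 and 0.19.

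Other genes moved with the same 2 libraries. The 17 proliferation genes summed to 644, 1124, 456 and 1750 normalised CPM in corn oil replicates 1 to 4 and to 531 to 818 with tamoxifen, and 13 of them were lower, with a median log2 fold change of -0.998. Of the 17, 0 passed the FDR in edgeR, and 8 were lower at an unadjusted p under 0.05 (5.27% of all tested genes were). Corn oil replicates 2 and 4 were the highest pair for 8 of the 17, beside 3.63% of all tested genes. Pcna, the replication clamp, had a log2 fold change of -0.82 (edgeR adjusted p 0.229), and Ube2c, a mitotic ubiquitin-conjugating enzyme, one of -1.85 (edgeR adjusted p 0.229). The 9 epithelial markers summed to 22523, 30786, 15944 and 31165 with corn oil and to 14631 to 25692 with tamoxifen. Of these markers 8 were lower (50.7% of all tested genes were), with a median log2 fold change of -0.39, and 0 passed the FDR in edgeR. At an unadjusted p under 0.05, 2 were lower, beside 5.27% of all tested genes. Corn oil replicates 2 and 4 were the highest pair for 2 of the 9, beside 3.63%. The part of either in the sterol result was not tested.

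Markers of other cells followed other orders. The 10 fibroblast markers summed to 363, 203, 481 and 740 normalised CPM in corn oil replicates 1 to 4 and to 227 to 1870 with tamoxifen, and all 9 that were tested had higher fitted levels. The 9 macrophage markers summed to 849, 569, 578 and 799 with corn oil and to 127 to 1423 with tamoxifen. Endothelial markers summed to at most 14.7 and lymphocyte markers to at most 2.01. Acinar markers, 7 of 9 of which were listed, summed to 155, 22.6, 205 and 108 in corn oil replicates 1 to 4 and to 33.6 to 88.9 with tamoxifen, mostly from Cela1, and Cela2a, Pnlip and Prss2 stayed under 1 in every library. The 5 hepatocyte markers listed summed to 108, 25.7, 140 and 5.78 with corn oil and to 63.2 to 199.6 with tamoxifen, and Alb had at most 12.5 normalised CPM. Both lists were thus lower in corn oil replicates 2 and 4, where the sterol genes were high, than in replicates 1 and 3, and their part in the sterol result was not tested. Fabp4 was the 1 adipocyte marker listed, at 1.62 to 11.3.

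The early steps lead from acetyl-CoA to farnesyl diphosphate, and 7 of their 8 genes had lower levels with tamoxifen. Their median log2 fold change was -1.09. Fdps encodes farnesyl diphosphate synthase, which makes the precursor of both sterols and prenylated proteins, and had the smallest p of all members. It lies on chromosome 3 at 89093588 to 89101959, minus strand of GRCm38. In corn oil replicates 1 to 4 it stood at 85.6, 208, 103 and 410 normalised CPM, and with tamoxifen at 61.3 to 99.96 with a median of 68.4. Of the 6 tamoxifen libraries 5 lay below the lowest corn oil library, and the groups overlapped through replicate 5. The means were 202 ± 149 (SD, n = 4) and 73.1 ± 14.6 (SD, n = 6), a log2 fold change of -1.46 (edgeR adjusted p 0.212, SE 0.38). Without corn oil replicate 4 the log2 fold change was -0.86.

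Hmgcs1 encodes the cytosolic HMG-CoA synthase, an early step of the pathway and a classical SREBP2 target, on chromosome 13 at 119690379 to 119708260, plus strand. It divided the corn oil group, with 32.3, 132, 28.8 and 137 normalised CPM in replicates 1 to 4. Tamoxifen libraries ranged from 21.8 to 41.6 with a median of 32.8. Both low corn oil libraries sat inside the tamoxifen range, and the high pair was over 3 times the highest tamoxifen library. Its fitted log2 fold change was -1.35 (edgeR adjusted p 0.318, SE 0.44).

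Mvd encodes the decarboxylase that forms isopentenyl diphosphate, on chromosome 8 at 122433601 to 122443422, minus strand. Its corn oil levels were 21.0, 68.1, 17.97 and 62.7 normalised CPM, with replicates 2 and 4 high as for Hmgcs1. With tamoxifen it ranged from 3.76 to 26.95 with a median of 15.02, and 4 of 6 libraries lay below the lowest corn oil library. Between groups the log2 fold change was -1.45 (edgeR adjusted p 0.427, SE 0.58).

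Acat2, the cytosolic thiolase that joins acetyl-CoA units, had 38.4, 78.5, 36.1 and 55.4 normalised CPM with corn oil. Its tamoxifen levels were 22.9 to 45.4 with a median of 35.0, so that the high pair of corn oil libraries alone stood clear. On the log2 scale the difference was -0.58 (edgeR adjusted p 0.6002, SE 0.31), and it was -0.31 without corn oil replicate 2.

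The kinases and the isomerase of the pathway varied widely. Mvk, mevalonate kinase, had a log2 fold change of -0.83, which was -0.16 without corn oil replicate 2 and -0.19 without tamoxifen replicates 1 to 3. Pmvk, phosphomevalonate kinase, had one of -1.39, or -0.88 without corn oil replicate 4, with 75.3 normalised CPM in corn oil replicate 4 against 23.3 to 31.1 in the other corn oil libraries. It had 0 reads in tamoxifen replicate 4, where 3 counts correspond to 0.188 normalised CPM. Idi1, the isomerase of isopentenyl diphosphate, was low throughout, at 1.37 to 12.5 normalised CPM, with a log2 fold change of -0.60 that was -0.14 without corn oil replicate 4. Ggps1 makes geranylgeranyl diphosphate for protein prenylation and so leaves the sterol branch. It was the early gene with a higher level, at 26.8, 37.6, 22.3 and 27.9 normalised CPM with corn oil and 26.5 to 62.4 with tamoxifen, a log2 fold change of 0.49 (edgeR adjusted p 0.696, SE 0.33).

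Promoters are shown for the 4 members at an unadjusted p under 0.05 that have an entry in the RefSeq promoter table (GRCm38.p6), a choice made after the values were seen, to set the known regulatory motifs of the pathway beside its lowest p-values. Each runs from 250 bases before to 50 bases after the annotated start. Capitals mark the sterol regulatory element TCACNCCAC, to which SREBP proteins bind, and CCAAT, the box bound by NF-Y, a known partner of SREBP2, on either strand. The windows are chr13:119690101-119690400 on the plus strand for Hmgcs1, and on the minus strand chr8:122443373-122443672 for Mvd, chr19:6067801-6068100 for Tm7sf2 and chr5:4104648-4104947 for Cyp51.
Hmgcs1: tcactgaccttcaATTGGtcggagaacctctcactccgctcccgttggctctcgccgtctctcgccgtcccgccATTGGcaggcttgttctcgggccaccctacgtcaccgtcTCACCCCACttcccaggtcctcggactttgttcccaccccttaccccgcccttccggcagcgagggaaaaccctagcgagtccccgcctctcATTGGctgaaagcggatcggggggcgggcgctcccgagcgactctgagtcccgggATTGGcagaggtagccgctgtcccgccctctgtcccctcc
Mvd: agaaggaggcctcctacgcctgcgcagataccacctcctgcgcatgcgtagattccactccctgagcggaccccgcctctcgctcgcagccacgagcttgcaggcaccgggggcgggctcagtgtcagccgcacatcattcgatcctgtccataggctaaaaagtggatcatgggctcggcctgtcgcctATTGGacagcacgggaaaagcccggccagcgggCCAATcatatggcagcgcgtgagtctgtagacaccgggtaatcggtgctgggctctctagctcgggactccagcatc
Tm7sf2: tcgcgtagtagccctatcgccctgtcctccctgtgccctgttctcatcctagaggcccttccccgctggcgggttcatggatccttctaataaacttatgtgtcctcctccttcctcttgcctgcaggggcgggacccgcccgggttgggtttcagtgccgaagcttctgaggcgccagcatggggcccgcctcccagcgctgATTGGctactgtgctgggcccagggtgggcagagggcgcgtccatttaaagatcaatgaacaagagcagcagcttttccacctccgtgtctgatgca
Cyp51: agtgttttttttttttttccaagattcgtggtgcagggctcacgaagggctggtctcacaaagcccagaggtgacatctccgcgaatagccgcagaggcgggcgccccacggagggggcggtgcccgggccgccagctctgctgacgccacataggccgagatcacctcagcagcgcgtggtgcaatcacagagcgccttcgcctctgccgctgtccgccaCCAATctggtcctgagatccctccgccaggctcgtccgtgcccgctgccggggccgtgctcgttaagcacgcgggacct

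A sterol regulatory element spelled this way was found for 1 of the 23 members with a promoter entry, Hmgcs1, where it starts at position -137, and for 1.44% of all 27025 genes in the table. The looser spelling TCACNCNAC also matched Nsdhl, which made 2 members, beside 3.15% of all genes. CCAAT was found for 19 of the 23 members (82.6%), beside 41.1% of all genes and 42.8% of the 9670 tested genes with an entry. In Hmgcs1 it occurs 4 times, nearest the start at position 11, and in Mvd it occurs at positions -60 and -27. The Sp1 motif GGGCGG, whose matches can share letters with a CCAAT match, was found for 20 members (87.0%), beside 38.2% of all genes and 68.5% of tested genes. These matches describe letters in the windows and not binding.

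Squalene and lanosterol formation are the steps that commit the pathway to sterols, and all 3 of their genes had lower levels with tamoxifen, with a median log2 fold change of -0.96. Fdft1, squalene synthase, lies on chromosome 14 at 63145150 to 63179578, minus strand. It stood at 93.0, 170, 68.7 and 249 normalised CPM in corn oil replicates 1 to 4 and at 55.3 to 105 with a median of 70.5 with tamoxifen. Corn oil replicates 1 and 3 lay inside the tamoxifen range, and replicates 2 and 4 above it. The log2 fold change was -0.96 (edgeR adjusted p 0.355, SE 0.34), and it was -0.57 without corn oil replicate 4.

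Sqle, squalene epoxidase, a rate-limiting enzyme of sterol synthesis, had a 12.1-fold range within the corn oil group alone, with 37.1, 149, 20.8 and 250.6 normalised CPM. Tamoxifen libraries at 33.7 to 88.3 lay between those extremes. Its log2 fold change of -1.005 (edgeR adjusted p 0.629, SE 0.57) was -0.28 without corn oil replicate 4 and -0.59 without tamoxifen replicates 1 to 3. Lss, lanosterol synthase, had 11.5, 55.1, 8.99 and 55.7 normalised CPM with corn oil and 10.9 to 27.6 with tamoxifen. Its log2 fold change of -0.60 became -0.23 when corn oil replicate 2 was left out and -0.22 when replicate 4 was.

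The steps from lanosterol to cholesterol remove methyl groups and shift double bonds, and 8 of their 9 genes had lower levels with tamoxifen, with a median log2 fold change of -0.58. Tm7sf2, a sterol reductase of the C14 position, was the 1 member whose groups did not overlap (1.95% of all tested genes did not overlap and were lower). It lies on chromosome 19 at 6062821 to 6068373, minus strand. It stood at 41.2, 31.6, 25.6 and 51.7 normalised CPM with corn oil and at 4.41 to 25.5 with a median of 17.7 with tamoxifen. The gap was 0.1 normalised CPM wide, between tamoxifen replicate 6 and corn oil replicate 3. Tamoxifen replicates 1 to 3 stood at 13.7, 8.37 and 4.41 and replicates 4 to 6 at 21.7, 24.7 and 25.5. The fitted log2 fold change of Tm7sf2 was -1.20 (edgeR adjusted p 0.440, SE 0.49), and it was -0.64 without tamoxifen replicates 1 to 3. Lbr, a protein of the inner nuclear membrane with the same reductase activity, had a log2 fold change of 0.01, with 34.7, 99.5, 31.3 and 55.5 normalised CPM with corn oil and 33.5 to 91.3 with tamoxifen.

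Cyp51, the lanosterol demethylase, lies on chromosome 5 at 4081145 to 4104746, minus strand. With corn oil it stood at 47.1, 138, 21.3 and 150 normalised CPM, and with tamoxifen at 19.4 to 68.8 with a median of 30.4. The high pair was again above every tamoxifen library. Between groups the log2 fold change was -1.19 (edgeR adjusted p 0.498, SE 0.53), and it was -0.79 without tamoxifen replicates 1 to 3.

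Msmo1, the methylsterol oxidase, had the widest absolute spread, with 113, 267, 51.3 and 446 normalised CPM with corn oil and 69.3 to 239 with a median of 114 with tamoxifen. Tamoxifen replicate 6, the shallowest library, held the highest tamoxifen value. The fitted difference of -0.81 (edgeR adjusted p 0.671, SE 0.50) was -0.20 without corn oil replicate 4 and -0.41 without tamoxifen replicates 1 to 3. Nsdhl and Hsd17b7, which complete the removal of methyl groups at C4, had log2 fold changes of -0.58 and -0.78. Nsdhl was at -0.29 when corn oil replicate 2 was left out. Hsd17b7 was at -0.34 when corn oil replicate 4 was left out and at -0.16 when tamoxifen replicates 1 to 3 were. Sc5d, the desaturase that acts late in the pathway, had one of -0.58, which was -0.19 without corn oil replicate 2 and -0.03 without tamoxifen replicates 1 to 3.

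Tamoxifen-binding sterol enzymes were measured as well. Ebp, the isomerase that shifts the sterol double bond, had the highest level per length of all members, 53.9 normalised CPM per kilobase of exon averaged over the 10 libraries, ahead of Fdps at 29.6 and Msmo1 at 26.5. The gene lies on chromosome X at 8185329 to 8193512, minus strand. It stood at 134, 169, 118 and 160 normalised CPM with corn oil, with the smallest ratio of highest to lowest corn oil library (1.43) among the genes with the high pair, and at 94.9 to 149 with a median of 106 with tamoxifen. Of 6 tamoxifen libraries 5 lay below the lowest corn oil library, with replicate 6 the exception. The log2 fold change was -0.40 (edgeR adjusted p 0.596, SE 0.21).

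Dhcr7, on chromosome 7 at 143823145 to 143848410, plus strand, encodes a reductase of the last step to cholesterol. It stood at 23.1, 26.2, 17.4 and 43.2 normalised CPM with corn oil and at 5.05 to 47.5 with a median of 14.0 with tamoxifen. Tamoxifen replicates 1 to 3 were its 3 lowest libraries, and replicate 5 the highest of all 10. Its fitted log2 fold change of -0.54 (edgeR adjusted p 0.852, SE 0.60) was 0.15 without tamoxifen replicates 1 to 3.

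**Figure D3:**
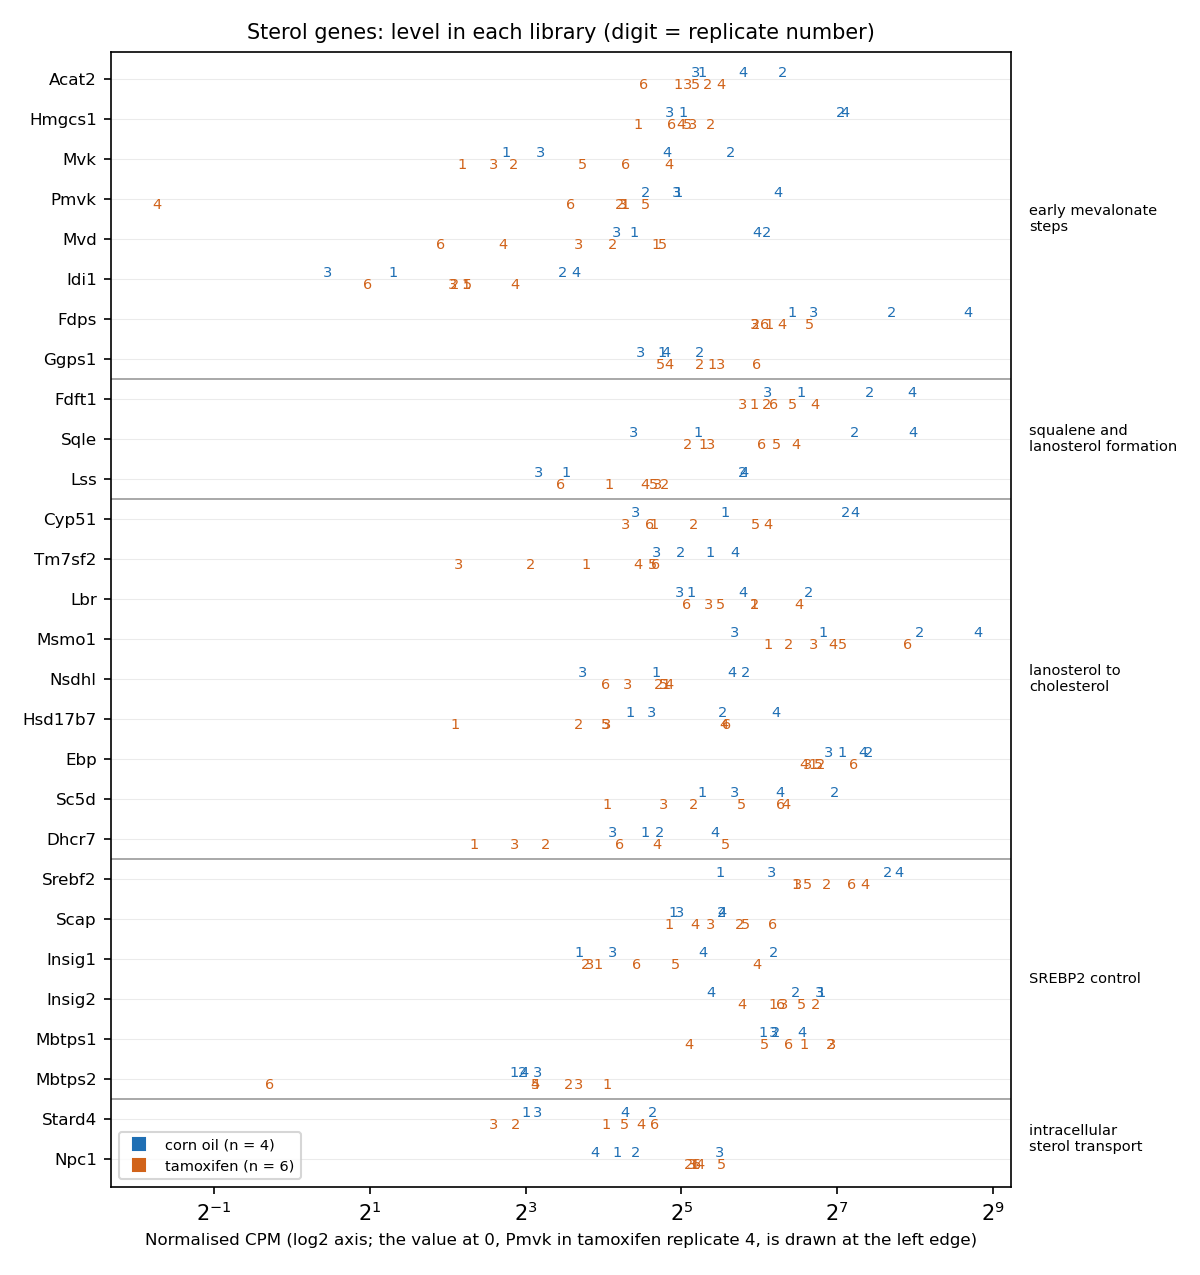
Level of each gene in each library in normalised CPM on a log2 axis, with the replicate number as the symbol. Corn oil replicates 2 and 4 stand together at the right for most enzymes, as for Hmgcs1 at 132 and 137, while corn oil replicates 1 and 3 mix with the tamoxifen libraries.

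The genes of SREBP2 control showed no common direction, and all 6, Srebf2 among them, had an edgeR adjusted p of at least 0.817. Srebf2, which encodes SREBP2 itself on chromosome 15 at 82147181 to 82205379, plus strand, stood at 45.1, 200, 71.0 and 222 normalised CPM with corn oil. Tamoxifen libraries at 89.1 to 164, with a median of 107, fell between the low and the high pair, so the groups interleaved. Between groups the log2 fold change was -0.20 (edgeR adjusted p 0.937, SE 0.41), and it was 0.06 without corn oil replicate 2 and 0.15 without replicate 4. Scap, the escort protein, had corn oil levels of 29.7, 45.7, 31.4 and 46.0. Its tamoxifen levels were 28.7 to 72.1 with a median of 47.4, a log2 fold change of 0.33 (edgeR adjusted p 0.817, SE 0.32) that was 0.53 without tamoxifen replicates 1 to 3.

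The Insig genes differed in how they were spread over the corn oil libraries. Insig1, known as a target of SREBP2, stood at 12.8, 72.4, 17.2 and 38.7 normalised CPM with corn oil, with the high values in the same 2 libraries as the enzymes. Tamoxifen libraries ranged from 13.6 to 62.5 with a median of 18.3, with replicate 4 highest and the next at 30.4. On the log2 scale the difference was -0.43 (edgeR adjusted p 0.887, SE 0.57) and 0.19 without corn oil replicate 2. Insig2 stood at 111, 88.2, 109 and 41.7 with corn oil, lowest in replicate 4, and at 54.9 to 106 with a median of 78.3 with tamoxifen. Its log2 fold change was -0.12 (edgeR adjusted p 0.952, SE 0.30). Mbtps1 and Mbtps2, the proteases, had narrow corn oil ranges of 65.9 to 93.8 and 7.20 to 8.91 normalised CPM. Their tamoxifen ranges were wider, at 34.2 to 122 and 0.82 to 16.5. The log2 fold changes were 0.18 and 0.32, and both were negative without tamoxifen replicates 1 to 3.

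The sterol transport genes were not lower with tamoxifen. Npc1, the lysosomal protein that exports cholesterol, stood at 18.04, 21.2, 44.9 and 14.8 normalised CPM with corn oil, with its lowest level in replicate 4 and its highest in replicate 3. Tamoxifen libraries were tightly grouped at 33.95 to 45.9, above all corn oil libraries but replicate 3. The log2 fold change was 0.60 (edgeR adjusted p 0.649, SE 0.36), and it was 1.06 without corn oil replicate 3. Stard4, a cytosolic sterol carrier, had a log2 fold change of 0.07, with 8.004 to 24.8 normalised CPM with corn oil and 6.02 to 25.2 with tamoxifen.

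Of 13 other genes of sterol synthesis and uptake, 10 had lower levels with tamoxifen, with a median log2 fold change of -0.29. In edgeR 0 of them passed the FDR, and 1 was lower at an unadjusted p under 0.05 (5.27% of all tested genes were). That gene was Erg28, a scaffold of the C4 demethylation enzymes, listed under an older symbol. It stood at 94.0, 184, 188 and 155 normalised CPM with corn oil and at 44.1 to 84.9 with a median of 73.2 with tamoxifen. Its groups did not overlap (1.95% of all tested genes did not overlap and were lower). The corn oil order of Erg28 differed from that of the enzymes, with replicate 3 highest. Its fitted log2 fold change was -1.15 (edgeR adjusted p 0.150, SE 0.26). Osbpl9, an oxysterol-binding protein relative, had one of 0.54 (edgeR adjusted p 0.532, SE 0.26).

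The 14 genes of the isoprenoid branch use farnesyl and geranylgeranyl diphosphate for protein prenylation, dolichol and ubiquinone. Of these, 11 were higher, with a median log2 fold change of 0.26. Over all tested genes 50.7% were lower and the median was -0.01. In edgeR 0 of the 14 passed the FDR. At an unadjusted p under 0.05, 2 were higher (4.43% of all tested genes) and 1 was lower (5.27% of all tested genes). Coq2, which attaches the isoprenoid tail of ubiquinone, stood at 27.7, 35.4, 25.6 and 39.3 normalised CPM with corn oil and at 44.7 to 86.6 with tamoxifen, and its groups did not overlap (1.28% of all tested genes did not overlap and were higher). Its log2 fold change was 1.10 (edgeR adjusted p 0.202, SE 0.28). Dolk, dolichol kinase, stood at 43.8 to 74.5 with corn oil and at 19.6 to 38.9 with tamoxifen, also without overlap (1.95% of all tested genes in this direction). Its log2 fold change was -0.82 (edgeR adjusted p 0.384, SE 0.31).

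Of 12 genes of sterol sensing and turnover of the sterol-producing reductase, 9 were higher, with a median of 0.29, and 0 passed the FDR in edgeR. At an unadjusted p under 0.05, 3 were higher, beside 4.43% of all tested genes. Pgrmc1, a haem-binding membrane protein, had a log2 fold change of 0.61 (edgeR adjusted p 0.397, SE 0.23). Among 11 genes of cholesterol efflux, esterification and the LXR receptors, which answer to high sterol, 6 were higher and 5 lower with a median of 0.23. In edgeR 0 of these passed the FDR, with 1 in each direction at an unadjusted p under 0.05. Of all tested genes, 4.43% were higher and 5.27% lower at that threshold. Soat2, which esterifies cholesterol, had a log2 fold change of -1.45 (edgeR adjusted p 0.327, SE 0.49), and Abca7, a lipid transporter, one of 1.16 (edgeR adjusted p 0.461, SE 0.48).

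Fatty acid genes under the related factor SREBP1 were 12 of 14 lower, with a smaller median of -0.21, and 0 passed the FDR in edgeR. At an unadjusted p under 0.05, 1 was lower, beside 5.27% of all tested genes. Corn oil replicates 2 and 4 were the highest pair for 3 of these 14, beside 3.63% of all tested genes. Elovl6, a fatty acid elongase, was 1 of them, with 11.5, 43.9, 12.8 and 53.5 normalised CPM with corn oil and 0 to 12.1 with tamoxifen, a log2 fold change of -2.23 (edgeR adjusted p 0.410, SE 0.86). Pnpla3, a lipid hydrolase, had 33.2 normalised CPM in corn oil replicate 4 and 2.38 to 7.38 in the other corn oil libraries, and 0 to 6.53 with tamoxifen, with 0 reads in 2 libraries and a log2 fold change of -3.38 (edgeR adjusted p 0.533, SE 1.62).

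**Figure D4:**
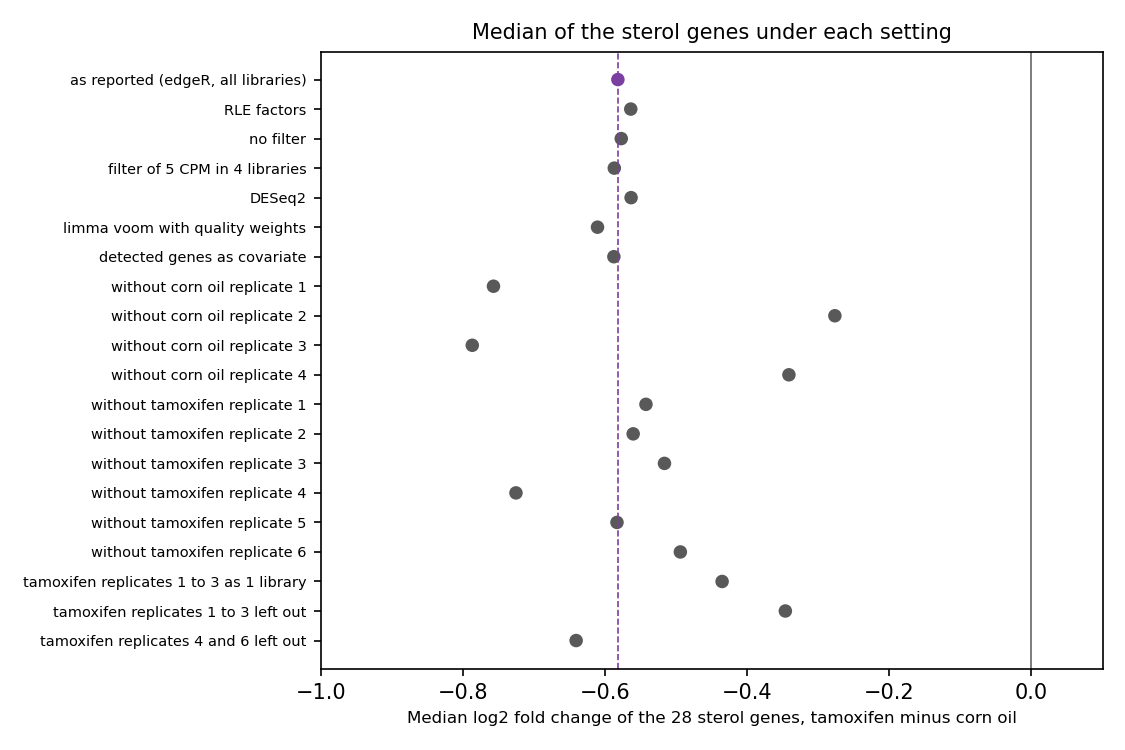
Median log2 fold change of the 28 sterol genes under each setting, with the reported value marked by the dashed line at -0.58. All medians are below 0, from -0.79 when corn oil replicate 3 was left out to -0.28 when replicate 2 was.

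The median of the members stayed below 0 in every setting tried, from -0.79 to -0.28, but its size and the number of low p-values depended on single libraries. Without corn oil replicate 2 the median was -0.28 and without replicate 4 it was -0.34, beside 0.00 over all genes in both fits. Members lower at an unadjusted p under 0.05 numbered 4 and 1 in those fits, where 4.24% and 4.29% of all tested genes were lower at that threshold. They numbered 9 when corn oil replicate 3 was dropped, beside 4.55% of all tested genes. Summing tamoxifen replicates 1 to 3 into 1 library gave a median of -0.44 with 3 such members, beside 2.67% of all tested genes, and leaving these libraries out gave -0.35 with 2, beside 2.23%. Leaving out tamoxifen replicates 4 and 6 gave -0.64 with 10 such members, where 10.1% of all tested genes were lower at that threshold. The tamoxifen libraries then left were replicates 1 to 3, which resembled each other closely, and replicate 5. The p-values of that fit thus rest mostly on libraries that may not be independent.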

How the data were processed

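Values were deposited by the authors as raw counts for each gene symbol in 10 libraries. RNA was extracted with a Qiagen micro kit, amplified with SMART-seq v4 and made into Nextera XT libraries, which do not mark strand, per the labels' protocols. The submitters' processing notes name bcl2fastq 2.17, STAR 2.5.2b, featureCounts 1.5.0-p3 and mm10, and for the annotation and the handling of multiply mapped reads no source used here gives a setting.

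The counts went unchanged into edgeR 4.0.16 (R 4.3.3), with filterByExpr, TMM factors, the quasi-likelihood F test for tamoxifen against corn oil without covariates, and Benjamini-Hochberg adjustment over 13006 genes. The SE is the absolute log2 fold change divided by the square root of F. Log2 CPM used a prior count of 2. Exon lengths and positions were read from GENCODE M21, whose GRCm38 assembly is that of mm10. The fit was also run on simulated counts, drawn independently for each library. These hold neither the likeness of tamoxifen replicates 1 to 3 nor the split of the corn oil libraries. They therefore cannot show how the fit handles either. Alternatives were RLE factors, other filters, DESeq2 1.42.0, limma 3.58.1 voom with quality weights, detected genes as a covariate, and libraries left out or summed. Figures used matplotlib 3.10.9.

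The members and lists were chosen with earlier results of these data known. Values of each corn oil library were given for the 8 members of smallest p, the 3 of highest level per length and Srebf2. They were also given for Scap, both Insig genes, Ebp and Dhcr7, and in part for others. Tamoxifen levels of these members were given as a range and median, with single libraries for Tm7sf2 and where named. Of each other pathway list, but not of the cell markers, the 2 genes of smallest p were named, except 1 gene that is not reported here. Exons of Hmgcs1, Idi1, Ggps1, Fdft1, Lss, Cyp51, Lbr, Scap and Npc1 overlap an opposite-strand gene, and those of Fdps and Tm7sf2 a gene on their own strand. Reads of such partners cannot be separated here.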

Additional observations from a re-analysis of the deposited data

Results flagged for a closer look

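Among 58 comparisons of 1 library with the others of its group, 4 libraries stood apart by Dixon's test, where chance gives about 1 in 20. Corn oil replicate 4 was highest for Pmvk, at 75.3 normalised CPM against 23.3 to 31.1 in the other corn oil libraries. Tamoxifen replicate 6 was highest for Ebp, at 149 normalised CPM against 94.9 to 110.03 in the other tamoxifen libraries. Tamoxifen replicate 4 was highest for Insig1, at 62.5 normalised CPM against 13.6 to 30.4. Tamoxifen replicate 5 was highest for Npc1, at 45.9 normalised CPM against 33.95 to 37.8.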

How the results depend on the processing

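No paired analysis was possible because the labels link no corn oil sample to a tamoxifen sample. The replicate numbers used here follow the order of the samples within each group. Genes past the FDR numbered 5 in edgeR, 243 with DESeq2, 1251 with voom, 21 with detected genes as a covariate, 0 with tamoxifen replicates 1 to 3 as 1 library, 0 without them, 77 without tamoxifen replicates 4 and 6, and 0 to 11 with 1 library left out. At an unadjusted p under 0.05 these counts of 0 go with 709 genes (1 library), 602 (left out) and, with 1 library left out, 894 to 1252. Members past it numbered 0 in edgeR, 1 with DESeq2 (Fdps, adjusted p 0.033) and 2 with voom (Fdps, adjusted p 0.0495, and Tm7sf2, adjusted p 0.00694). Members lower at an unadjusted p under 0.05 numbered 6, and 3 with tamoxifen replicates 1 to 3 as 1 library, 2 without them, 10 without tamoxifen replicates 4 and 6, and 1 to 9 with 1 library left out. The sterol motif matched 1 member, and 2 with the looser spelling. The cause of these changes was not tested.

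Of 532 log2 fold changes of single members in the alternatives, 29 had the opposite sign, and all of these were of genes whose reported value lay between -0.60 and 0.32. With voom these were Idi1 (0.077), Lss (0.26), Srebf2 (0.20), Insig2 (0.043) and Stard4 (-0.62). With detected genes as a covariate they were Lbr (-0.0055) and Stard4 (-0.028). Without tamoxifen replicates 1 to 3 they were Dhcr7 (0.15), Srebf2 (0.017), Insig1 (0.12), Mbtps1 (-0.32) and Mbtps2 (-0.38), and with these as 1 library Mbtps1 (-0.018). Without tamoxifen replicates 4 and 6 they were Lbr (-0.088), Insig2 (0.00018) and Stard4 (-0.32). With 1 library left out the ranges were -0.19 to 0.46 for Lbr, -0.49 to 0.15 for Srebf2, -0.90 to 0.19 for Insig1, -0.35 to 0.015 for Insig2 and -0.14 to 0.41 for Stard4. Without tamoxifen replicates 1 to 3 Stard4 was at 0.55, Insig2 at -0.21 and Lbr at 0.04.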
